A study of Oryza sativa with 4 samples.

Results

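A group of 23 rice genes, seen through 29 probe sets, was far more strongly expressed in young panicles of 2014 than in those of 2013, whichever genotype was looked at. The members were chosen by their measured values. The log2 intensities of all 4 arrays were quantile-normalized, which gives the arrays a common distribution, and a probe set tied to a single gene was taken when 2014 exceeded 2013 by at least 3 log2 in ago2-1 and by at least 3 log2 in WT. Of 22436 single-gene probe sets, which stand for 17905 genes, 33 met this threshold (0.147%), and 23 met its mirror image, lower in 2014 (0.103%). Of these, 4 were left out by name: the clock gene LHY, the light-harvesting gene LHCP (LOC4333359), the heat shock gene HSP24.1 and the heat stress factor gene HSFB2C. The last was counted with the heat shock genes by choice, and with it there would be 30 probe sets of 24 genes. No RBCS or PSAH probe set met the threshold. The differences between the years are given below as a description, with no test, because they chose the genes.

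The study compared young panicles (Oryza sativa) before stage 5 from 2 genotypes grown under normal field conditions. The ago2-1 plants carried an antisense construct to OsAGO2, one of the argonautes, the proteins that small RNAs guide to their targets, and the WT plants were ZH11. There was 1 Affymetrix rice array for ago2-1 in 2014, 1 for WT in 2014, 1 for ago2-1 in 2013 and 1 for WT in 2013, so n = 2 arrays per year and n = 2 per genotype. The promoter of the construct, the number of independent lines and the number of plants behind an array are not stated in the sources used here, and p-values measure only the spread between these arrays.

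The panicle is the flower-bearing shoot of rice, and its early stages are made up of meristems and floral organs that have not yet matured. Transcripts of field-grown plants can follow the hour of the day, light, temperature and the stage of the organ. The circadian clock sets morning and evening peaks in many of them, and genes of chlorophyll synthesis and photosynthesis follow light and the greening of the tissue. In bulk tissue, more cells of a type and more RNA per cell cannot be told apart.

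The arrays of the years differed in scale. The median deposited intensity was 45.2 on the ago2-1 array and 45.3 on the WT array of 2014, against 28.8 on the ago2-1 array and 29.1 on the WT array of 2013. On the deposited log2 scale the median over all 57194 probe sets of the difference 2014 minus 2013 was 0.70 in ago2-1 and 0.73 in WT, and on the quantile scale it was 0.00 and 0.03. Year, season and array processing cannot be told apart in this design. Of 15 measured genes for young panicles and their meristems, the limma fit with genotype as a term called 0 higher and 1 lower in 2014. The lower gene was MADS58, named here after its value was seen. Over all probe sets the same fit called 12.2% higher and 11.1% lower (adjusted p below 0.05). The 15 genes had a median difference of −0.03 log2. Among them MADS1 stood at 12.99 and 12.76 in ago2-1 and WT of 2014, against 12.90 and 12.84 in those of 2013. FZP, a regulator of spikelet identity, lay in the lowest 25% of each array (2.83 and 3.01 in 2014, against 2.81 and 2.94 in 2013). The other 14 genes of the list stood above the median on both arrays of 2014. AGO2, the gene that the construct targets, had no lower value in ago2-1: it stood at 10.68 on the ago2-1 array and 10.24 on the WT array of 2014, and at 9.92 and 9.84 on those of 2013. Directions between genotypes are therefore those of the arrays labelled ago2-1.

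Over the 29 probe sets the year difference, 2014 minus 2013, ran between 3.03 and 7.76 log2 in ago2-1, with a median of 3.93, and between 3.21 and 7.54 in WT, with a median of 3.87. Over all probe sets these medians were 0.00 and 0.03. Averaged over the genotypes, 7 member probe sets differed by 5 log2 or more, 6 by between 4 and 5, and 16 by less than 4. The members were not all alike in where they started. On both arrays of 2013, 6 probe sets lay in the lowest 25% of intensities (below 3.63 log2), a range in which no background measure was used here, and 0 lay in the highest 25% (above 7.95). On both arrays of 2014, 26 lay in the highest 25% and none was below the median of its array. When probe sets whose mean over the arrays fell below the median of all were dropped, 27 of the 29 stayed.

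**Figure D1:**
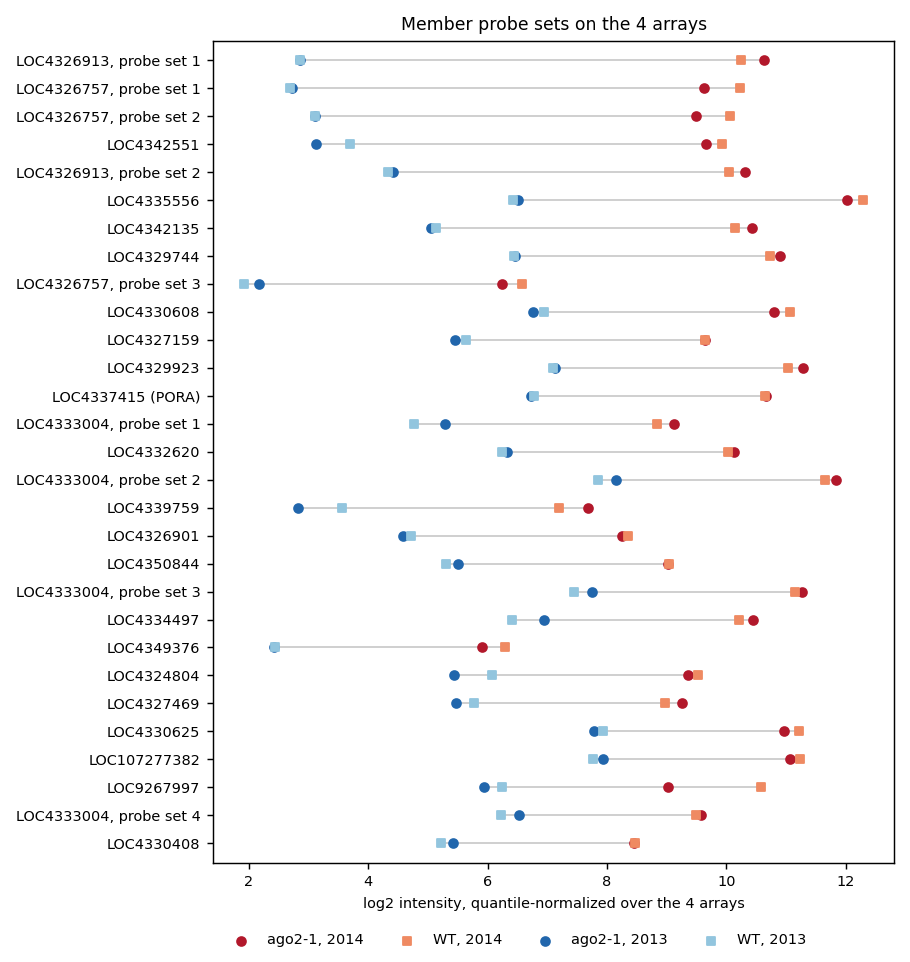
Quantile-normalized log2 intensity (x axis) of each member probe set (rows, sorted by the smaller of both year differences) on the ago2-1 and WT arrays of 2014 and of 2013. The 2014 values lie at 5.91 or more and the 2013 values at 8.16 or less, and within each row the years are apart by more than the genotypes.

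**Figure D2:**
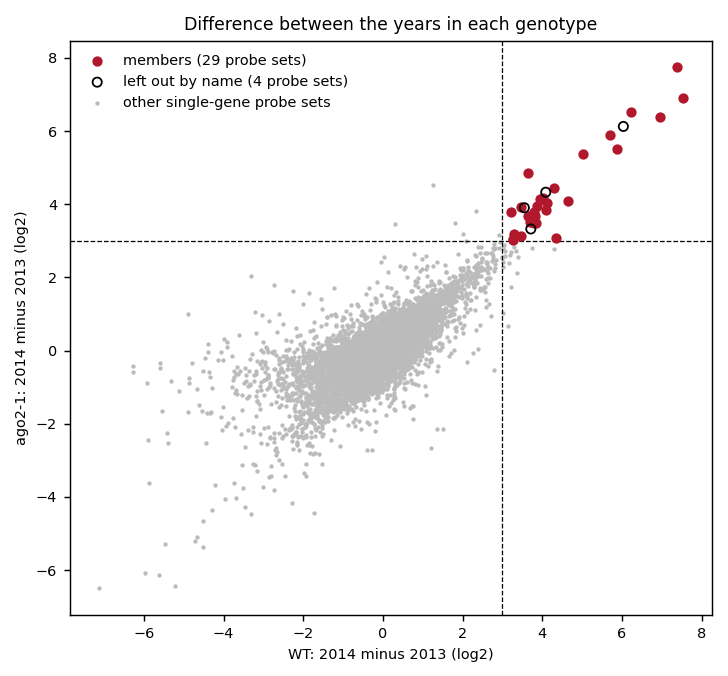
Difference 2014 minus 2013 in log2 in WT (x axis) and in ago2-1 (y axis) for 22436 single-gene probe sets. Dashed lines mark the threshold of 3; 29 members (red) and 4 probe sets left out by name (open circles) lie beyond both lines, and the members lie there because the threshold chose them.

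PORA (LOC4337415) was the only member with a gene name other than a LOC number in the annotation used here. It encodes a protochlorophyllide oxidoreductase, the enzyme that uses light to turn protochlorophyllide into chlorophyllide late in chlorophyll synthesis. In Arabidopsis the enzyme of this name is the form that builds up in dark-grown seedlings. PORA stood at 10.67 log2 on the ago2-1 array and 10.64 on the WT array of 2014, against 6.72 on the ago2-1 array and 6.78 on the WT array of 2013. Both genotypes thus had almost the same value within a year, and the arrays of 2014 lay 3.95 (ago2-1) and 3.87 (WT) log2 above those of 2013, or 15.5-fold and 14.6-fold.

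Other genes of chlorophyll synthesis did not share a difference of this size. Between the years the limma fit with genotype as a term called 12.2% of all probe sets higher and 11.1% lower in 2014 (adjusted p below 0.05), which is the background for the counts of genes outside the group. Of the 4 other measured genes of chlorophyll synthesis 1 was called higher, 0 lower, and their median difference was 0.14. PORB (LOC4349004), the second protochlorophyllide oxidoreductase, rose by 0.96 log2 (limma adjusted p = 0.010), with 10.17 and 10.49 in ago2-1 and WT of 2014, against 9.31 and 9.43 in 2013. CHLH, a subunit of magnesium chelatase, which puts magnesium into the chlorophyll ring, stood at 9.18 and 9.42 in 2014, against 8.90 and 9.33 in 2013. CHLD and CHLI, the other subunits, also did not pass the test (adjusted p = 0.62 and 0.81). CHLI was dim, at 3.72 and 4.59 in ago2-1 and WT of 2014, against 4.16 and 4.30 in 2013. These values lay below the array median of 5.18.

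Genes of green tissue were higher together with PORA. All 5 other measured genes of that list were called higher in 2014, with a median difference of 1.59 log2. However, 1 of them, the LHCP gene LOC4333359, also met the threshold of 3 and was left out by name. Its call uses the values that the rule used and is no separate result. RBCS (LOC4351966), the small subunit of Rubisco, had 10.62 and 10.90 in ago2-1 and WT of 2014, against 8.43 and 8.28 in 2013 (adjusted p = 0.0020). That LHCP gene had 12.75 and 12.95 in 2014, against 9.43 and 9.24 in 2013. The other measured LHCP gene, LOC4324599, had 13.63 and 13.74 in 2014, against 12.33 and 12.09 in 2013. The summed intensity of the 6 genes, PORA included, was 26393 and 29242 on the ago2-1 and WT arrays of 2014, against 7804 and 6909 on those of 2013, and none of them lay in the lowest 25% of an array of 2014. PORA and that LHCP gene met the threshold, so part of the gap between these sums follows from the rule. The part of green cells in the higher PORA value was not tested.

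**Figure D3:**
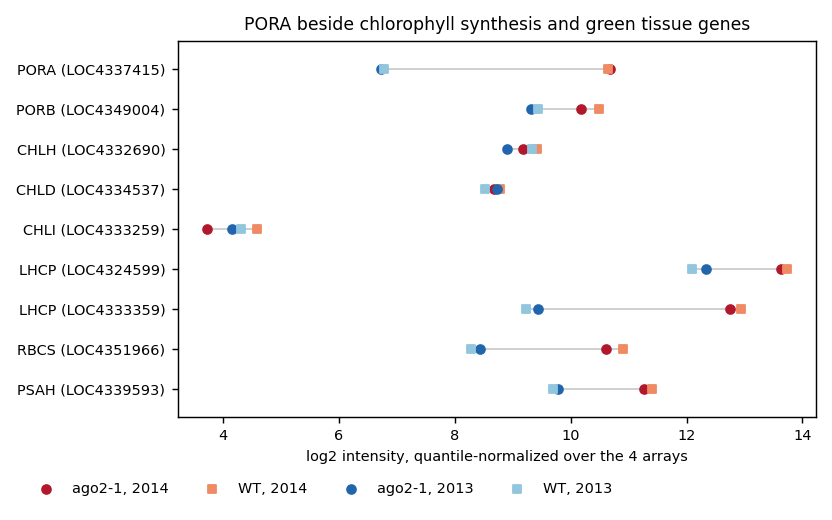
Quantile-normalized log2 intensity (x axis) of PORA, the other measured genes of chlorophyll synthesis and the green tissue genes (rows) on the ago2-1 and WT arrays of 2014 and of 2013. PORA and the LHCP gene LOC4333359 show the widest gaps between the years, while CHLH, CHLD and CHLI overlap between the years.

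The remaining 22 genes carry LOC numbers alone, and nothing in the sources used here says what they encode. All 22 are listed as protein-coding in RefSeq, as PORA is. Of these, 3 stood in or near the lowest 25% of intensities in 2013 and in the highest 25% in 2014. LOC4326913 had 10.62 log2 on the ago2-1 array and 10.24 on the WT array of 2014, against 2.87 and 2.85 on those of 2013. On the deposited scale these are intensities of 1930 and 1476 in 2014, against 5.39 and 5.37 in 2013. Its year differences of 7.76 (ago2-1) and 7.39 (WT) were 217-fold and 168-fold, but they rest on a dim 2013 value and their size is not settled. A second probe set of the gene, whose _x_at suffix marks probes that can also match other sequences, showed 5.89 and 5.71.

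LOC4326757 was covered by 3 probe sets, and all 3 were members. The first had 9.63 and 10.22 log2 in ago2-1 and WT of 2014, against 2.73 and 2.69 in 2013. The second had 9.49 and 10.06 in 2014, against 3.11 and 3.10 in 2013. The third had 6.24 and 6.58 in 2014, against 2.16 and 1.92 in 2013. The year difference was 6.90, 6.38 and 4.08 in ago2-1 and 7.54, 6.96 and 4.66 in WT, so the probe sets of 1 gene differed by more than 2 log2 in the size they gave. In each of the 3 the ago2-1 array lay below the WT array in 2014 (−0.60, −0.57 and −0.34), while in 2013 it lay slightly above (0.04, 0.01 and 0.24).

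LOC4342551 had 9.65 and 9.93 log2 in ago2-1 and WT of 2014, against 3.12 and 3.70 in 2013. Its year differences were 6.53 in ago2-1 and 6.23 in WT. It lies next to a heat stress factor gene on the chromosome, HSFA2B (LOC4342550), which itself differed by only 0.23 and 0.38.

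Another set of genes was measured well above the lowest 25% in 2013 and still differed by 5 log2 or more. LOC4335556 had 12.03 and 12.30 log2 in ago2-1 and WT of 2014, against 6.50 and 6.42 in 2013, so its year differences were 5.52 and 5.88. In deposited intensities it reached 5126 and 6264 in 2014, against 73.8 and 69.4 in 2013. LOC4342135 had 10.42 and 10.14 in 2014, against 5.05 and 5.13 in 2013, with year differences of 5.37 and 5.01. Its 2013 values lay just below the array median of 5.18. For both genes the arrays of a year lay within 0.28 log2 of each other, far less than the distance between the years.

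Of the next genes in size, 4 differed by about 4 log2 with close agreement of the genotypes. LOC4329744 had 10.90 and 10.72 log2 in ago2-1 and WT of 2014, against 6.46 and 6.44 in 2013. LOC4330608 had 10.80 and 11.06 in 2014, against 6.76 and 6.95 in 2013. LOC4327159, seen through an _x_at probe set, had 9.63 and 9.65 in 2014, against 5.46 and 5.63 in 2013. Their year differences in ago2-1 and WT were 4.44 and 4.28, 4.04 and 4.11, and 4.18 and 4.02. LOC4329923 belongs with them, at 11.29 and 11.03 in 2014, against 7.13 and 7.09 in 2013, with differences of 4.15 and 3.93. LOC4332620 came after PORA, at 10.13 and 10.03 in 2014, against 6.33 and 6.24 in 2013. Its 2 year differences, 3.80 and 3.80, were the most alike of all members.

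LOC4333004 was the member with the most probe sets: 4 of its 5 met the threshold. Their year differences ran between 3.04 and 3.83 log2 in ago2-1 and between 3.27 and 4.08 in WT, and the fifth had 2.58 and 2.75. One of the 4 had 11.83 and 11.65 in ago2-1 and WT of 2014, against 8.16 and 7.84 in 2013. Another had 9.12 and 8.84 in 2014, against 5.29 and 4.76 in 2013. In all 5 probe sets ago2-1 was the higher array in both years, and these probe sets share a gene and are not replicates of a condition.

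Besides LOC4333004, 4 genes had probe sets outside the group, which makes 7 such probe sets of 5 genes. All 7 differed between the years in the same direction, and all but 1 by more than 1.7 log2 in both genotypes. LOC4330408, whose member probe set had 3.03 and 3.26 in ago2-1 and WT, had 2.28 and 2.45 in the other. LOC4349376 had 3.49 and 3.85 in its dim member probe set (5.91 and 6.29 in 2014, against 2.42 and 2.44 in 2013) and 2.73 and 3.35 in the other. LOC4339759 had 4.86 and 3.65 in its member probe set and 2.81 and 2.81 in the other, so the gap between the genotypes in the first is not seen in the second.

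LOC9267997 was the member whose year difference was least alike in the genotypes. Its member probe set, which carries the _s_at suffix of probes shared by several transcripts, had 9.02 log2 on the ago2-1 array and 10.58 on the WT array of 2014, against 5.93 and 6.24 in 2013, a year difference of 3.08 in ago2-1 and 4.34 in WT. The other 3 probe sets of the gene also had the smaller difference in ago2-1: 1.74 against 3.22 in WT, 2.77 against 4.29, and 0.70 against 0.97. In 2014 ago2-1 minus WT was −1.56 in the member and −1.57, −1.49 and −0.53 in the others, whereas in 2013 it was −0.31, −0.09, 0.03 and −0.26. With 1 array per genotype and year, whether the year difference depends on the genotype cannot be tested.

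**Figure D4:**
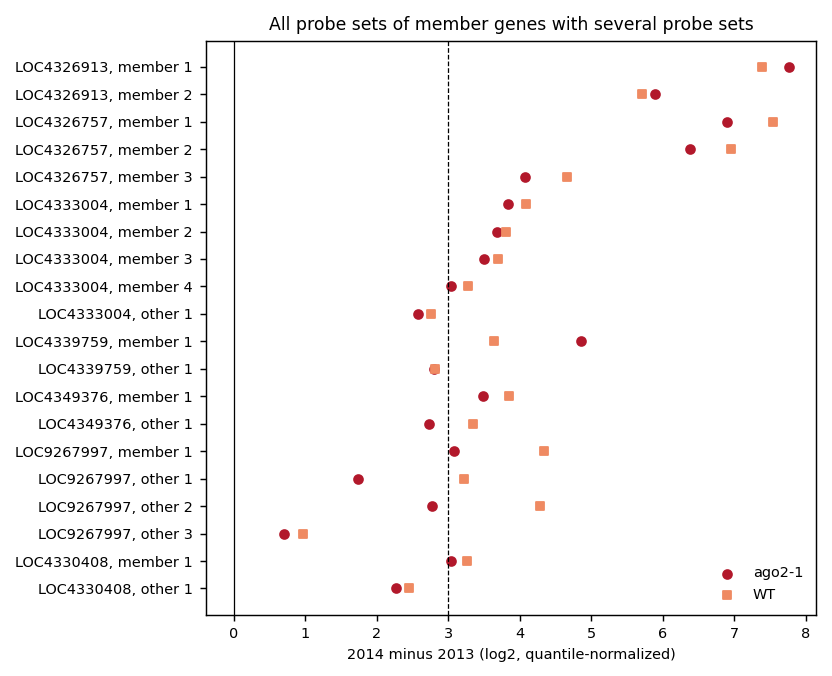
Difference 2014 minus 2013 in log2 (x axis) in ago2-1 and WT for every probe set of the 7 member genes that have several. "Member" marks probe sets beyond the threshold of 3 (dashed line) in both genotypes and "other" the 7 that are not; all lie above 0, and the 4 probe sets of LOC9267997 show ago2-1 to the left of WT.

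The members close to the threshold did not stand apart from the probe sets just outside it. Just inside were LOC9267997 (smaller year difference 3.08), a probe set of LOC4333004 (3.04) and LOC4330408 (3.03). Just outside were LOC4345439 (2.94), LOC4347677 (2.91) and LOC4334513 (2.88). Requiring the difference in both genotypes also mattered: 34 probe sets met it in ago2-1 and 47 in WT, and the 29 members are 85.3% of the first and 61.7% of the second.

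Among the remaining genes, LOC4326901 had 8.26 and 8.35 log2 in ago2-1 and WT of 2014, against 4.58 and 4.72 in 2013. LOC4350844 had 9.03 and 9.04 in 2014, against 5.51 and 5.31 in 2013. LOC4334497 had 10.44 and 10.20 in 2014, against 6.95 and 6.41 in 2013. In these 3 genes the arrays of a year lay within 0.54 log2 of each other. LOC4330625 had 10.97 and 11.22 in 2014, against 7.79 and 7.94 in 2013, and LOC107277382 had 11.07 and 11.23 in 2014, against 7.93 and 7.76 in 2013. On the arrays of 2013 both genes already stood close to the limit of the highest 25%.

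LOC4324804 and LOC4327469 had the larger year difference in ago2-1. LOC4324804 had 9.36 and 9.52 log2 in ago2-1 and WT of 2014, against 5.44 and 6.07 in 2013, or 3.93 and 3.45. LOC4327469 had 9.26 and 8.98 in 2014, against 5.47 and 5.77 in 2013, or 3.79 and 3.21. In all, the year difference was larger in ago2-1 for 12 of the 29 probe sets, and the median absolute gap between the genotypes' year differences was 0.25 log2, against 0.19 over all probe sets.

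The comparison of ago2-1 with WT was not used to choose the members and could be tested. It asked whether these genes also differed between the genotypes on average over both years. A genotype difference in 1 year alone cannot be tested with 1 array per genotype and year. No member was called by the limma fit with year as a term (0 of 29 with an adjusted p below 0.05, smallest adjusted p = 0.49), where 0.117% of all 57194 probe sets were called. Without year as a term it called 0 of the 29, and 0.00175% of all. That fit could hardly call a member, because the year difference of at least 3 log2 then enters its residual. At an unadjusted p below 0.05 the fit with year as a term had 4 of 29, against 8.91% of all probe sets. None had a 2-fold or larger difference of the same sign in 2014 and 2013, against 0.283% of all. Where the shares over all probe sets are 0.117% and 0.283%, counts of 0 among 29 say little. The median difference, ago2-1 minus WT, was −0.011 log2 over the members and 0.0067 over all probe sets.

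The direction of the genotype difference was mixed, as it was over all probe sets. In both years ago2-1 was higher for 10 member probe sets (30.5% of all probe sets did so), lower for 8 (27.1%) and opposed between the years for 11 (42.4%). The 10 include every member probe set of LOC4333004 and of LOC4326913 and so stand for fewer than 10 genes. The 8 are of different genes. The largest mean difference was that of LOC9267997, −0.94 ± 0.89 log2 (SD of both years, n = 2, limma adjusted p = 0.49), with a 95% interval from −1.67 to −0.20. LOC4342551 had −0.43 (interval −0.77 to −0.09, adjusted p = 0.50) and LOC4324804 had −0.39 (−0.79 to 0.0022, adjusted p = 0.56). On the higher side, a probe set of LOC4333004 had 0.40 (0.07 to 0.74, adjusted p = 0.51) and LOC4334497 had 0.39 (0.04 to 0.73, adjusted p = 0.53). PORA had −0.011, with an interval from −0.32 to 0.30. These intervals bound the differences but do not show that the genotypes were alike.

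**Figure D5:**
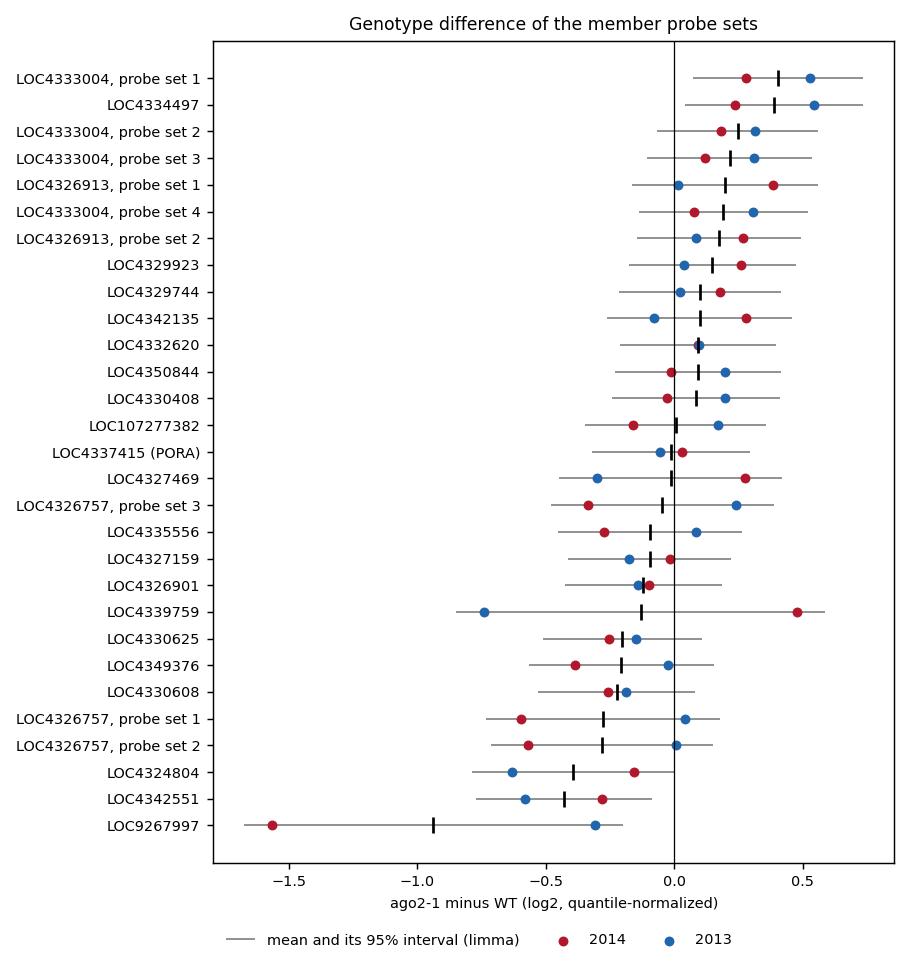
Difference ago2-1 minus WT in log2 (x axis) for each member probe set (rows) in 2014 (red) and in 2013 (blue), with the mean and its 95% interval from limma. LOC9267997 lies lowest at −0.94, a probe set of LOC4333004 highest at 0.40, and none of the 29 passed after adjustment.

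Clock genes, left out of the group by name, moved in both directions. LHY, a morning transcription factor of the clock, stood at 12.79 and 12.64 log2 in ago2-1 and WT of 2014, against 6.66 and 6.60 in 2013. PCL1, an evening component, stood at 4.51 and 4.34 in 2014, against 10.60 and 10.30 in 2013. Of 7 measured clock genes 2 were called higher and 3 lower in 2014. The labels used here give no hour of sampling, and the part of the clock in the members' differences was not tested. The heat-related genes left out differed by 4.33 and 4.09 in ago2-1 and WT (HSP24.1) and by 3.91 and 3.55 (HSFB2C). The part of heat was not tested either.

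The other lists were counted in the same way. Of 7 light receptor and signalling genes 1 was called higher, PHOT2, and 1 lower, HD1, both named here after their values were seen. Their first 3 measured, the phytochromes PHYA, PHYB and PHYC, did not pass (adjusted p = 0.41, 0.42 and 0.072). Of 17 sugar and starch genes 3 were called higher and 4 lower, of 14 cold and drought genes 3 and 3, of 7 phosphate starvation genes 1 and 2, and of 4 nitrogen genes 2 and 0. Tapetum and pollen wall genes, which mark later anthers, were called lower for 5 of 8 and higher for 0, with a median of −0.91, while 0 of 4 endosperm genes and 0 of 1 root gene were called. The summed tapetum list was 4173 and 5583 in ago2-1 and WT of 2014, against 6328 and 8562 in 2013. Of its 8 genes, 6 stood above the median on both arrays of 2014. TDR, the first in the list, had 9.47 and 10.38 in ago2-1 and WT of 2014, against 10.51 and 11.16 in 2013. Another gene, C6, lay in the lowest 25% of the ago2-1 array of 2014 (3.60) and stood at 3.95 on the WT array. The part of the list in the members' differences was not tested.

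The measured genes beside the members on the chromosome did not reach the members' year differences. By the order of genes in RefSeq (assembly ASM3414082v1), 29 of the 46 genes directly beside a member were measured. None of these 29 was higher by at least 1 log2 in both genotypes. Only 2.18% of all measured genes reached that level, so a count of 0 among 29 says little. The neighbours' median year difference was 0.15 in ago2-1 and 0.30 in WT, each read from the brightest probe set of a gene. The medians over all probe sets include those with no gene and are not a like background. The nearest to the level of 1 log2 was LOC4326900, beside LOC4326901, with 1.07 and 0.88. A neighbour of LOC4326913, the cyclin gene CYCB1-1 (LOC4326914), had 0.13 and 0.11. The closest pairs of members were LOC4326913 and LOC4326901 (10 genes between them), LOC4330608 and LOC4330625 (17), and LOC4324804 and LOC4327469 (30). No expected spacing was computed. No 2 members were adjacent.

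Features that the choice did not use were also read. The members' genes had a median length of 2567 bases in RefSeq, against 3526 for all measured genes, and a median of 1 listed transcript in both sets. They had 1.57 probe sets per gene on average, against 1.25 over all genes. More probe sets give a gene more chances to meet the threshold. An _x_at or _s_at suffix was carried by 7 of the 29 probe sets (24.1%), against 14.1% of all single-gene probe sets, and without them 22 members were left.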

How the data were processed

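Expression was measured in young panicles on 4 arrays. The authors deposited 1 linear intensity per probe set and array, obtained with RMA (version not stated) per the submitters' processing notes; the label on RNA extraction names a human tissue and was not used. Here log2 was taken with no pseudocount and the arrays were quantile-normalized. The number of arrays limits the precision. Genes came from the platform annotation: 22436 probe sets had 1 gene, 95 several and 34663 none. RefSeq names matched all 17905 genes; the table's coordinates were used for neighbourhood alone. Leaving genes out by name cannot reach a clock or heat shock gene with a LOC number alone.

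ago2-1 was compared with WT by limma 3.58.1 (lmFit, eBayes) in R 4.3.3 on all 57194 probe sets with year as a term (1 residual and 4.48 prior degrees of freedom) and Benjamini-Hochberg adjustment; the year coefficient of the same fit served genes outside the group. Year, in the titles, marks a shared season and pairs the arrays: year differences of the genotypes correlated with r = 0.76 across probe sets. A list gene with several probe sets was read from the one with the highest mean. Old names shared by several genes were settled by hand, and RCN1, which reached a transporter, was left out. The fit was tested on simulated data. Alternatives were no year term, other scalings, thresholds, prior variances, a level filter and leaving out arrays.

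Described one by one were the 12 genes with the largest smaller-of-both year difference, named genes, the 5 largest genotype differences, those next to the threshold and near neighbours; in the end each member is given. Members and lists were chosen with earlier results of these data known. Sequence features were planned and not used here.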

Additional observations from a re-analysis of the deposited data

Results flagged for a closer look

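The genotype difference of 2 member probe sets pointed in opposite directions in the 2 years, by at least 0.25 log2 in each. LOC4339759 had ago2-1 above WT by 0.48 in 2014 and below it in 2013 (−0.74), a gap of 1.21 between the years. LOC4327469 had 0.28 in 2014 and −0.30 in 2013, a gap of 0.58. With 1 array per genotype and year these gaps were not tested. The 2013 values of LOC4339759 (2.82 in ago2-1 and 3.55 in WT) lay in the lowest 25% of their arrays, and its other probe set showed 0.01 in 2014 and 0.02 in 2013.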

How the results depend on the processing

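The number of members depended on the scale and the threshold. On the deposited scale, where the shift between the years is kept, 68 probe sets met the threshold; at 2 log2 there were 112 and at 4 log2 there were 11. With 1 array left out, so that 1 genotype alone decided, the count ran between 34 and 47. Centring on the median gave 28, cyclic loess 29, the level filter 27 and leaving out suffixed probe sets 22 and keeping the heat stress factor gene HSFB2C, an alternative chosen after seeing the data, 30; averaging the probe sets of a gene gave 21 genes, all among the 23. The mean year difference of the 29 moved by 0.60 to 0.83 on the deposited scale and by at most 0.18 under centring or loess. The count of members called between the genotypes was 0 under all 7 alternative limma fits. Of these, the fit with no replicate block (year left out) had a smallest adjusted p of 1.00 and 1 call among all probe sets (0.00175%). It could hardly call a member, since the year difference that chose the members enters its residual. With trend the smallest adjusted p was 0.38. The fits that kept year called between 20 and 128 of all the probe sets they tested. A count of 0 among the members therefore says little. The median genotype difference ran between −0.012 and 0.021 with 1 array left out, and the count at least 2-fold apart between 0 and 1, that being LOC9267997 in 2014. Leaving out an array leaves 1 year, a value with no test. The dim 2013 values limit how exactly the largest differences are known.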

Other observations

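Beyond the named genes, 9 probe sets with no gene in the platform annotation met the same threshold in both genotypes, with year differences between 3.06 and 6.56 log2 in ago2-1 and between 3.11 and 5.59 in WT. Several share the number in their probe set names. The probe set with 5.75 in ago2-1 and 5.59 in WT shares it with those of LOC4326913. The 9 therefore need not be separate transcripts.

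A further 18 probe sets of 16 genes met the threshold in WT but not in ago2-1. The member genes LOC9267997 and LOC4349376 are among these 16. In ago2-1 the differences of the 18 probe sets ran between 0.68 and 2.88. Among them was PSAG (LOC4337812), a photosystem I subunit chosen here after its values were seen, with 9.58 and 9.43 log2 in ago2-1 and WT of 2014, against 6.85 and 6.36 in 2013. NFYB8 (LOC4333105), a subunit of a CCAAT-binding factor likewise chosen after its values were seen, had 7.75 and 7.59 in 2014, against 4.94 and 3.86 in 2013. The reverse held for 5 probe sets, with WT differences between 0.30 and 2.91. Of these 5, LOC4324844 had the year differences farthest apart between the genotypes, 4.52 in ago2-1 and 1.26 in WT. It had 10.76 and 8.30 in ago2-1 and WT of 2014, against 6.25 and 7.04 in 2013. Whether these differences depend on the genotype cannot be tested with 1 array per genotype and year.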
